A study of Mus musculus with 9 samples.

Results

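The comparison set 3 libraries of C2C12 myotubes given palmitic acid against 3 libraries of untreated C2C12 myotubes, 6 of the 9 libraries in the series, over all 22831 genes of the count table. The libraries were taken by their treatment label. C2C12 is an immortal mouse myoblast line whose cells fuse into multinucleated, contracting myotubes when serum is lowered, so every group shares one cell line, a wild-type genotype label and horse-serum differentiation medium, and none is adult muscle tissue. The control received neither agent, the palmitic acid group received 200 µM palmitic acid, and the remaining group received 200 µM palmitic acid with 1000 µM carnitine. The carnitine libraries entered here only to estimate the spread between libraries. The duration label of the palmitic acid group reads 48 with a garbled unit, so no unit is given, and the label gives no vehicle or albumin carrier for the control. Nothing in the labels says whether the 3 libraries of a group came from separate cultures, so p-values cover the spread between these libraries, which may be technical.

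Palmitic acid is the commonest saturated fatty acid in blood. In muscle cells it is activated to its CoA ester and then oxidised in mitochondria after transfer through carnitine palmitoyltransferase, stored in lipid droplets or built into ceramide and phospholipids. Fatty acids also bind the nuclear receptors PPARα and PPARδ, whose targets in muscle include genes of fatty acid oxidation, droplet coating and lipoprotein lipase inhibition. Excess palmitate is widely used in cultured myotubes as a model of lipid overload, with insulin resistance, ER stress and inflammatory signalling as its usual readouts.

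The libraries held 2.31 to 3.31 M counts in control and 3.33 to 5.14 M with palmitic acid (two-sided exact permutation p = 0.1, the smallest that 3 against 3 allows). All 13 myotube markers had counts in all 6 libraries. Their summed FPKM (counts per kb of gene and M counts, as deposited) was 3870 to 6400 in control and 6950 to 11300 with palmitic acid. Summed FPKM of 4 fibroblast markers moved the same way, 413 to 746 against 753 to 1290. So did that of 8 reserve cell markers, 37.1 to 68.6 against 73.4 to 118, of which Myod1 reached 80.7 and Pax7 stayed at or under 0.297 FPKM. Sums of other cell types overlapped between groups, with 7.18 to 12.1 against 9.73 to 10.1 for 2 osteoblast markers. Those of 3 macrophage markers were 36.8 to 49 in control and 17 to 38.2 with palmitic acid. The part of other cells in the results was not tested. FPKM is scaled to all counts of a library, and the part of that scaling in these sums was not tested either. With the scaling used in the tests below, the myotube markers Myog, Myh3 and Mymk had log2 fold changes of -0.01, -0.08 and 0.54. The fibroblast marker Col1a1 had 0.20. The 2 adipocyte markers analysed summed to at most 3.09 FPKM. Of the macrophage markers, Adgre1 was at 0 in 5 of the 6 libraries, while Csf1r, which has a gene on the opposite strand of an exon, stood at 16.4 to 47 FPKM. Many counts in the table fell on genes lying opposite an expressed gene. The sense-to-opposite ratio used here divides the counts of protein-coding genes without an opposite-strand gene on their exons by the counts of noncoding genes opposite protein-coding ones. It was 0.685, 0.633 and 1.18 in control replicates 1 to 3 and 3.48, 1.21 and 1.22 in palmitic acid replicates 1 to 3. Every palmitic acid ratio was above every control ratio, with means of 1.97 and 0.832 (two-sided exact permutation p = 0.1, again the smallest possible). The ratio thus differed along with the treatment, and the 2 cannot be told apart over 3 against 3 libraries. Palmitic acid replicate 1 stood apart with the highest ratio and depth, and control replicate 3 stood apart from the other controls. Control replicate 3 and palmitic acid replicates 2 and 3 had nearly equal ratios, and their comparison is called the like-ratio comparison below. It leaves 1 control library, which is assumed to vary like the other groups. Within each group, the most alike pair of libraries still differed by more than counting noise, with chi-square values per gene of 3.6 in control and 4.2 with palmitic acid, where 1 marks counting noise alone.

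Because a gene and its opposite-strand neighbour cannot be told apart in these counts, genes were tested in 2 sets. Unpaired genes are 5920 tested protein-coding genes whose exons no opposite-strand gene of the annotation overlaps. Paired loci are 2665 groups of genes whose exons overlap on opposite strands, with their counts summed. By edgeR's quasi-likelihood test with Benjamini-Hochberg adjustment over both sets together, 43 of 8585 features, or 0.501%, passed an adjusted p of 0.05, all of them unpaired genes: 3 were higher and 40 were lower with palmitic acid. When all 12548 testable genes were fitted in 1 model without merging, 0 genes passed (0%). In that fit 2453 genes had an unadjusted p under 0.05, while DESeq2 called 437 and limma voom with quality weights called 1024. The count of 43 rested on single libraries: it was 0 without control replicate 1, 0 without control replicate 2, 857 without control replicate 3, 10 without palmitic acid replicate 1, 6 without palmitic acid replicate 2 and 45 without palmitic acid replicate 3. Of the 43 genes, 43, 10, 5 and 30 were among the calls of the last 4 settings in that order. Fewer cells of a type and less RNA per cell cannot be told apart in these bulk libraries.

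The 3 genes that rose were Angptl4, Tubb3 and Plppr2. Values are CPM, counts per M counts of unpaired genes after TMM scaling. Angptl4, a secreted inhibitor of lipoprotein lipase and a classical PPAR target (chromosome 17, 33992724 to 34000804, GRCm39), stood at 80.6, 140 and 164 CPM in control replicates 1 to 3 and at 349, 276 and 381 CPM in palmitic acid replicates 1 to 3. The groups did not overlap, with the lowest palmitic acid library above the highest control, an order seen in 7.72% of all unpaired genes. Means were 128 ± 42.9 and 335 ± 53.9 CPM (SD, n = 3 each), a log2 fold change of 1.36 ± 0.23 (SE; edgeR adjusted p = 0.0081).

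Tubb3, the class III β-tubulin best known from neurons (chromosome 8, 124138163 to 124148754), had 20.7, 28.8 and 26.3 CPM in the controls and 82.6, 86.7 and 70.9 CPM with palmitic acid. All 3 treated libraries lay close together, above all controls. The gene rested on few counts, with 9, 14 and 24 raw counts in control and 193, 83 and 66 with palmitic acid. The log2 fold change was 1.65 ± 0.35 (edgeR adjusted p = 0.0236). Plppr2, a membrane protein of the phospholipid phosphatase-related family (chromosome 9, 21848329 to 21860203), had 2.3, 18.5 and 31.7 CPM in the controls and 85.2, 67.9 and 92.3 CPM with palmitic acid. The controls spread widely, but none reached the treated range. Raw counts were 1, 9 and 29 in control and 199, 65 and 86 with palmitic acid. Its log2 fold change was 2.07 ± 0.45 (edgeR adjusted p = 0.0276).

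The like-ratio libraries are among those that chose the 3 genes. Since the groups did not overlap for any of the 3, their direction in the like-ratio libraries was fixed beforehand. The size there is not independent of the choice either, so these values are no separate result. There the log2 fold change of Angptl4, the log2 fold change of Tubb3 and the log2 fold change of Plppr2 were 1.00 ± 0.29, 1.58 ± 0.56 and 1.33 ± 0.56, and with the log2 ratio as a covariate they were 1.17 ± 0.27, 1.62 ± 0.49 and 1.76 ± 0.51. None passed the adjusted threshold in either fit (adjusted p of 1 in the like-ratio fit for each, and 0.104, 0.998 and 0.781 with the covariate). The Angptl4 call was lost without control replicate 1 (adjusted p = 0.133 by edgeR) or 2 (0.0516). The Tubb3 call was lost without control replicate 1 or 2 (edgeR adjusted p = 0.196 and 0.123) and without palmitic acid replicate 1 or 2 (0.0971 and 0.0867). The Plppr2 call was lost without any library but control replicate 3, with edgeR adjusted p from 0.0673 to 0.196.

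**Figure D1:**
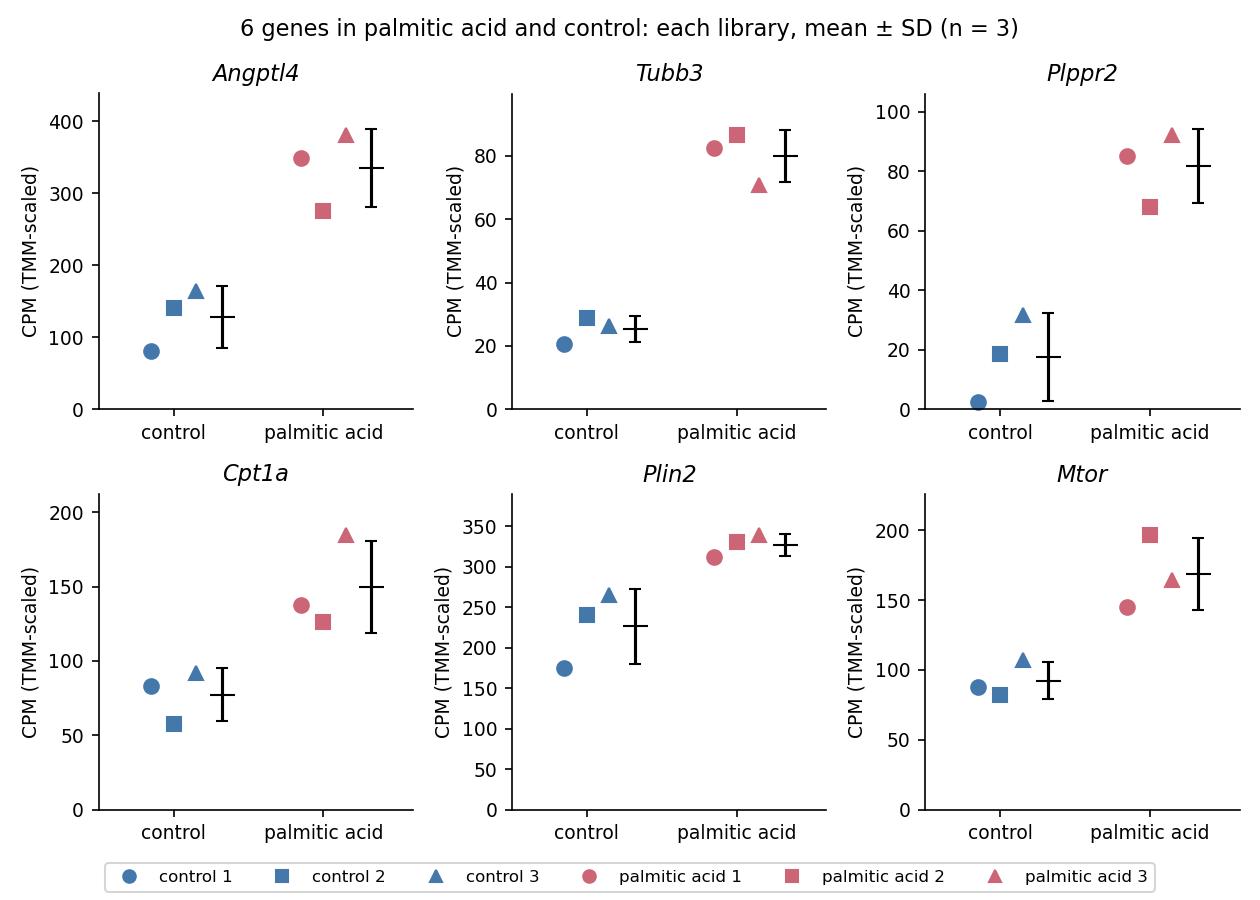
CPM of 6 genes in each control (blue) and palmitic acid (red) library, with the group mean and SD beside the points and a linear axis from 0. For each of the 6 genes all palmitic acid points lie above all control points, from Tubb3 with 20.7 to 28.8 against 70.9 to 86.7 CPM to Plin2 with 175 to 265 against 312 to 339 CPM. Angptl4, Tubb3 and Plppr2 passed the adjusted threshold, and Cpt1a, Plin2 and Mtor did not.

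RefSeq promoter sequences (GRCm38.p6, 250 bases before to 50 after the start) were matched for Tubb3 and Plppr2, the other 2 genes that rose beside Angptl4, and for Cpt1a and Plin2, PPAR targets described next. They are shown so that the starts of 2 genes that rose and 2 PPAR targets that did not pass the threshold can be compared. Capitals mark GGGCGG, the GC box, in Tubb3, the octamer ATGCAAAT in Plppr2, and AGGTCA, the nuclear receptor half-site (read on the other strand), in Cpt1a and Plin2. Each motif was searched on both strands and these motifs do not overlap one another here.
Tubb3, plus strand of chr8:123411303-123411602: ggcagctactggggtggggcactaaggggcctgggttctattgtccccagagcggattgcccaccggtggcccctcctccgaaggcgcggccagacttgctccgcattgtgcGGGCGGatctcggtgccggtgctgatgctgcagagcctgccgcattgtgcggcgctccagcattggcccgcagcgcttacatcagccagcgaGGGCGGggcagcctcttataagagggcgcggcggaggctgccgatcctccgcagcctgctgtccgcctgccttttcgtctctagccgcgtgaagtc
Plppr2, plus strand of chr9:21936760-21937059: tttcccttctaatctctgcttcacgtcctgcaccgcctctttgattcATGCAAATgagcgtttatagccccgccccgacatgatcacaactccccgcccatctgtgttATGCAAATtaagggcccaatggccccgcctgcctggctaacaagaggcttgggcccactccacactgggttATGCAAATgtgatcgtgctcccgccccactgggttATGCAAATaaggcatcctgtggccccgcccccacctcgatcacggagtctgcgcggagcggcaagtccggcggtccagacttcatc
Cpt1a, plus strand of chr19:3323051-3323350: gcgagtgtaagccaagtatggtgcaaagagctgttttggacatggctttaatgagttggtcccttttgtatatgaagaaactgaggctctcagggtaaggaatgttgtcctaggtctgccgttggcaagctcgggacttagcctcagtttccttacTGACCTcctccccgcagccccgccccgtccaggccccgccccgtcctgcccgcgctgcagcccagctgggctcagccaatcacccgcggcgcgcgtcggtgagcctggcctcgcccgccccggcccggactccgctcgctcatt
Plin2, minus strand of chr4:86670010-86670309: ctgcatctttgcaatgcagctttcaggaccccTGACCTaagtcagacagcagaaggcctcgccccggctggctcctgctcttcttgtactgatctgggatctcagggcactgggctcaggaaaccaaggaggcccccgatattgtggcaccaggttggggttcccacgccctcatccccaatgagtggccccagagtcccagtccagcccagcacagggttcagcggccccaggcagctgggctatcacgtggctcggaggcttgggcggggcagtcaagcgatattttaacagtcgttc

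The Plppr2 promoter held 4 copies of ATGCAAAT. Of 32851 promoters of this length, 570 or 1.74% held at least 1 copy, 35 held 2 or more, and 1, this promoter, held 4 or more. That motif was chosen after the sequence was seen. GGGCGG was in 35.7% of promoters, with 2 copies in Tubb3, 4 in Plppr2, 3 in Cpt1a and 1 in Plin2. AGGTCA was in 16.3%, with 1 copy each in Cpt1a and Plin2 and 0 in Tubb3 and Plppr2. These matches describe the letters of the windows and say nothing of binding.

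Among lipid genes, the PPAR target list had 13 unpaired members tested, and 12 of them had a log2 fold change above 0, with a median of 0.31 beside -0.01 over all unpaired genes. At an unadjusted p under 0.05, 5 members were higher and 0 lower, where 4.02% of all unpaired genes were higher and 7.09% lower. Only Angptl4 passed the adjusted threshold. The others were Cpt1a, Acaa2, Plin2 and Lpin1. In the like-ratio libraries 9 of the 13 were above 0, with a median of 0.33. The list's 7 paired loci had a median of 0.40 over 3 against 3 libraries and of -0.05 at like ratio.

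Cpt1a, the outer-membrane enzyme that makes acylcarnitines for mitochondrial import (chromosome 19, 3372334 to 3435733), had 82.9, 57.6 and 91.9 CPM in control and 138, 126 and 185 CPM with palmitic acid. The groups did not overlap. Its log2 fold change was 0.93 ± 0.31 (edgeR adjusted p = 0.144), and 0.75 ± 0.42 in the like-ratio libraries. Plin2, the lipid droplet coat protein, had 175, 241 and 265 CPM in control and 312, 330 and 339 CPM with palmitic acid. Its palmitic acid libraries were nearly level, and control replicate 1 was lowest. The log2 fold change was 0.52 ± 0.20 (edgeR adjusted p = 0.174) and 0.33 ± 0.26 at like ratio. Acaa2, the thiolase that ends each round of mitochondrial β-oxidation, had 96.7, 82.2 and 101 CPM in control and 137, 146 and 175 CPM with palmitic acid. That was a log2 fold change of 0.70 ± 0.26 (edgeR adjusted p = 0.159), with 0.67 ± 0.39 at like ratio.

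Pdk4, the kinase that shuts off pyruvate dehydrogenase when fat is burned, overlapped between groups, with 69.1, 32.9 and 59.1 CPM in control and 59.1, 69.0 and 66.6 CPM with palmitic acid. Lpin1, a phosphatidate phosphatase, had low counts, with 13.8, 30.8 and 36.1 CPM in control and 44.5, 38.7 and 69.8 CPM with palmitic acid (log2 fold change 0.86 ± 0.42, edgeR adjusted p = 0.29). Slc27a4, a fatty acid transport protein with acyl-CoA synthetase activity, had 76, 84.3 and 79.8 CPM in control and 154, 109 and 125 CPM with palmitic acid (0.70 ± 0.27, edgeR adjusted p = 0.182). The wider β-oxidation list moved less clearly: 11 of 14 unpaired members were above 0 with a median of 0.22, but in the like-ratio libraries 7 of 14 were, with a median of -0.05. For 52 unpaired oxidative phosphorylation subunits the medians were 0.06 and -0.15, the second the opposite sign of the first. At an unadjusted p under 0.05, 4 of the 52 were higher and 0 lower, where 4.02% of all unpaired genes were higher and 7.09% lower.

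Ucp2, a mitochondrial carrier and PPAR target, shares a locus with Dnajb13 on the other strand (chromosome 7, 100142544 to 100151227 and 100150923 to 100164167). Summed, the locus had 10, 19.3 and 26.4 CPM of paired-locus counts in control and 136, 77.1 and 46.7 CPM with palmitic acid. The groups did not overlap. Most of the added counts were assigned to Ucp2, with 16, 19 and 44 raw counts in control and 324, 124 and 79 with palmitic acid. That division between the strands is uncertain. The log2 fold change of the locus was 2.2 ± 0.45 (edgeR adjusted p = 0.0588), and 1.23 ± 0.45 in the like-ratio libraries. It did not pass the threshold.

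**Figure D2:**
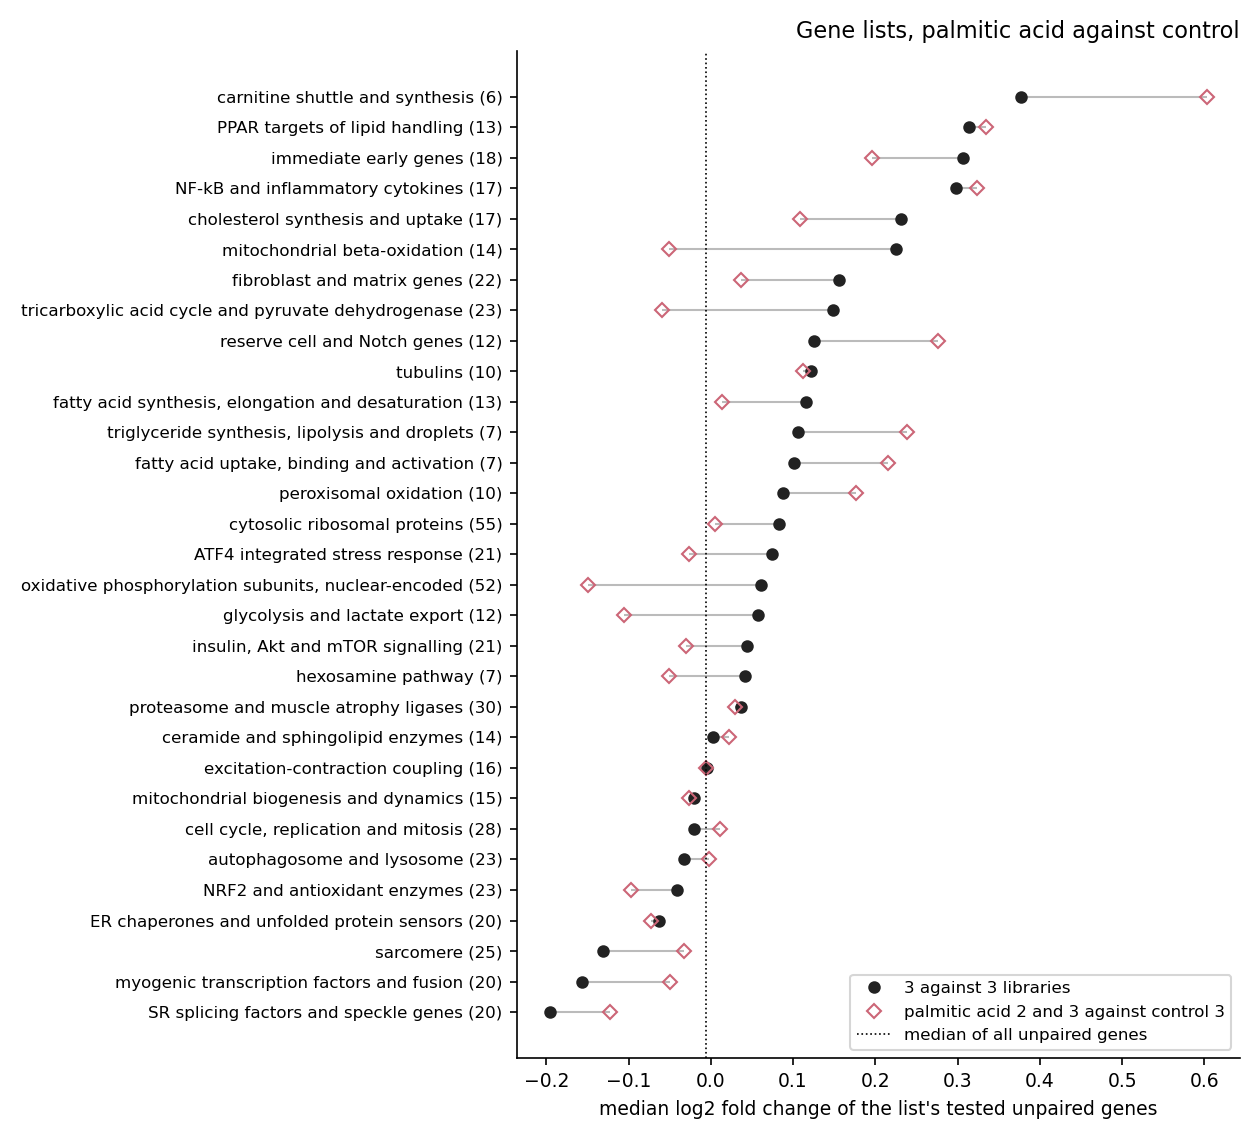
Median log2 fold change of the tested unpaired genes of each list with at least 5 of them (number in brackets), in all 6 libraries (filled circles) and in palmitic acid replicates 2 and 3 against control replicate 3 (open diamonds). The dotted line is the median of all unpaired genes, -0.01. The carnitine, PPAR target, NF-kB and immediate early lists lie to the right in both comparisons. Other lists do so too, such as cholesterol synthesis (0.23 and 0.11) and reserve cell and Notch genes (0.13 and 0.28). Oxidative phosphorylation moves from 0.06 to -0.15 and β-oxidation from 0.22 to -0.05.

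Of the 40 genes that fell, those with the smallest p and groups that did not overlap were Atg7, the E1-like enzyme of autophagosome conjugation, Ppig, a cyclophilin with an arginine-serine tail, the splicing factors Prpf38b and Srek1, the ER membrane complex subunit Emc2, the cilium gene Cfap410, the transporter Slc16a4, the ER-shaping protein Reep1, the inner mitochondrial membrane protein Mpv17 and the mRNA export factor Thoc2. Their log2 fold changes ran from -2.99 for Slc16a4 to -1.27 for Cfap410, with edgeR adjusted p from 0.0081 for Atg7 to 0.0149 for Thoc2. Also called lower were genes known from other tissues, such as the T-cell cytokine gene Il4, the olfactory receptor gene Olfr805 and Star, which moves cholesterol into the mitochondria of steroid-making cells. Those 3 were chosen after their values were seen.

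Atg7 (chromosome 6, 114620058 to 114837575) had 1181, 1128 and 348 CPM in control and 138, 277 and 313 CPM with palmitic acid. Control replicate 3 sat just above the highest palmitic acid library and far below the other 2 controls. Over 3 against 3 libraries the log2 fold change was -1.87 ± 0.30, and in the like-ratio libraries it was -0.24 ± 0.22. Ppig (chromosome 2, 69552889 to 69584356) had 661, 629 and 226 CPM in control and 105, 196 and 198 CPM with palmitic acid. It kept the same order of libraries, with a log2 fold change of -1.61 ± 0.27 and of -0.20 ± 0.24 at like ratio. Olfr805 had 3107, 3058 and 620 CPM in control and 125, 651 and 684 CPM with palmitic acid, so here control replicate 3 lay inside the palmitic acid range, and at like ratio the value was 0.10 ± 0.17.

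This order was common among the genes that fell. The groups did not overlap for 28 of them, an order seen, in this direction, in 7.67% of all unpaired genes. Control replicate 3 was nearer on the log2 scale to the palmitic acid mean than to the mean of the other 2 controls for 29 of the 40 genes (72.5%), beside 60.8% of all unpaired genes. The median log2 fold change of the 40 was -1.90 over 3 against 3 libraries, which chose them, and -0.31 in the like-ratio libraries, with a range of -3.19 to 0.57. Groups that do not overlap place palmitic acid replicates 2 and 3 below control replicate 3, so the same 28 of the 40 (70%) were below it in both. These libraries also chose the 40, so that share is no separate result beside the 34.1% of all unpaired genes. Both were above control replicate 3 for 6 of the 40. The strand ratio moved with the size of these values, and its part in them was not tested.

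**Figure D3:**
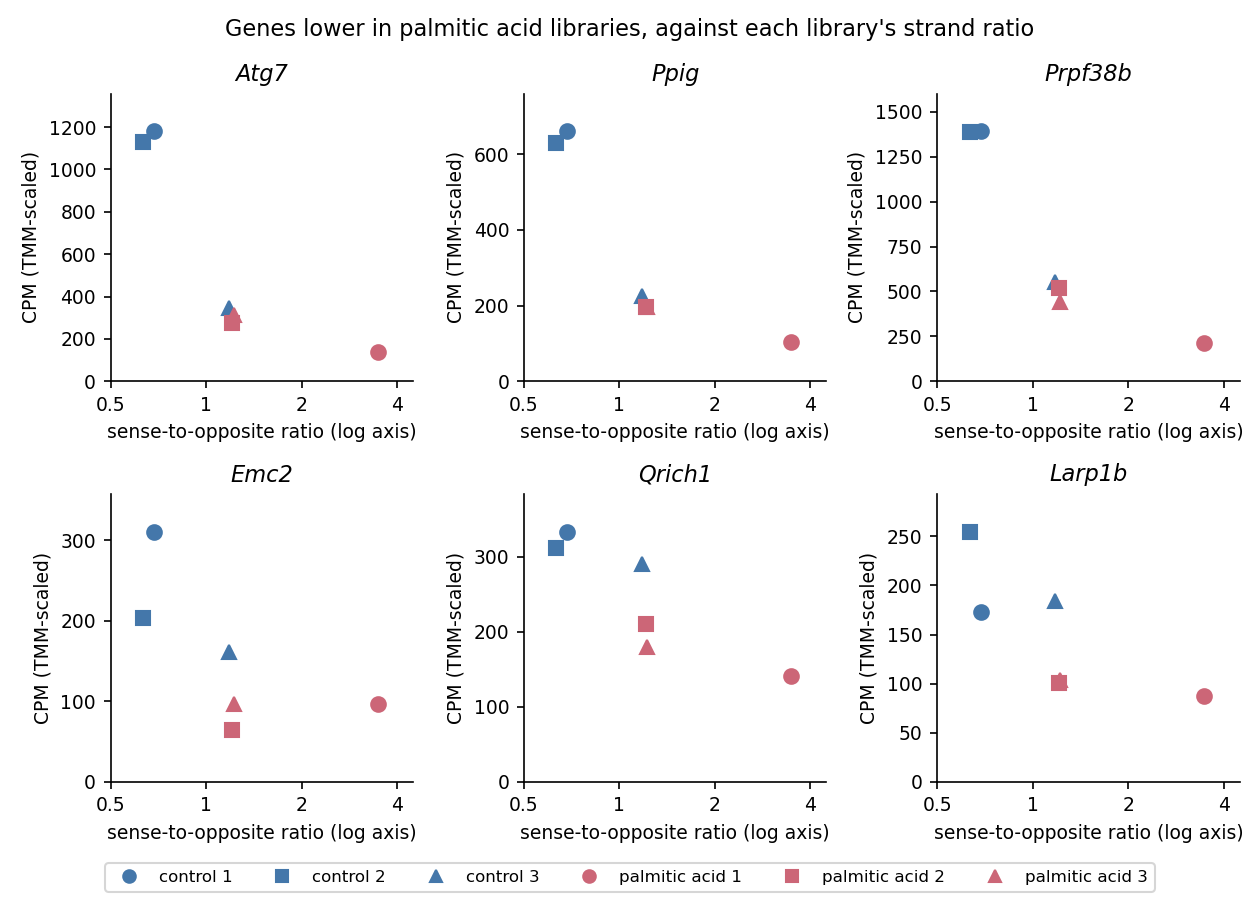
CPM of 6 genes that fell (linear axis from 0) against the sense-to-opposite ratio of each library (log axis), control in blue and palmitic acid in red. Atg7, Ppig and Prpf38b stand at a like level in control replicate 3 and palmitic acid replicates 2 and 3, whose ratios are 1.18 to 1.22. Emc2, Qrich1 and Larp1b are lower in those 2 palmitic acid libraries than in control replicate 3.

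A larger share of the genes that fell than of all unpaired genes had a close tail-to-tail neighbour. Any part of such neighbours in the calls was not tested. For 18 of the 40 (45%), the nearest gene on the other strand ended toward them, tail to tail, with its 3′ end within 5000 bp, as against 20.6% of all 5920 unpaired genes. The median distance to the nearest opposite-strand gene was 1841 bp for the 40 and 6244 bp for all. Atg7 ended 14 bp from the 3′ end of Vgll4, Star 14 bp from that of Ash2l, Cfap410 42 bp from that of Pfkl, and Il4 1015 bp from that of Kif3a, whereas Prpf38b, Emc2, Thoc2 and Srek1 lay 88300 to 335100 bp from any opposite-strand gene. Ppig (0 bp from Gm13622), Orc3 (13 bp from Rars2) and Tmem126a (23 bp from Gm44907) lay close to an opposite-strand gene but not past its 3′ end. None of the 3 genes that rose lay within 5000 bp past such a 3′ end. These distances come from the table's own GRCm39 positions and were looked at after the calls were known.

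Of the 28 genes that were below control replicate 3 in both like-ratio palmitic acid libraries, 4 are given as examples, picked after their values were seen. Emc2 (chromosome 15, 43340625 to 43391159), whose complex inserts membrane proteins into the ER, had 311, 204 and 161 CPM in control and 97.2, 64.8 and 96.6 CPM with palmitic acid. Every palmitic acid library was below every control. The log2 fold change was -1.36 ± 0.25 (edgeR adjusted p = 0.0129), and -1.0 ± 0.34 at like ratio. Larp1b, a La-related RNA-binding protein, had 173, 255 and 184 CPM in control and 87.8, 100 and 104 CPM with palmitic acid. Its log2 fold changes were -1.07 ± 0.25 (edgeR adjusted p = 0.0449) and -0.85 ± 0.35. Slc46a3, a lysosomal transporter, had 73.7, 71.9 and 54.7 CPM in control and 8.14, 17.8 and 19.3 CPM with palmitic acid, with log2 fold changes of -2.19 ± 0.45 (edgeR adjusted p = 0.0214) and -1.56 ± 0.67. Qrich1, a regulator linked to the unfolded protein response, had 334, 312 and 291 CPM in control and 141, 210 and 180 CPM with palmitic acid, with log2 fold changes of -0.82 ± 0.19 (edgeR adjusted p = 0.0472) and -0.58 ± 0.26.

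**Figure D4:**
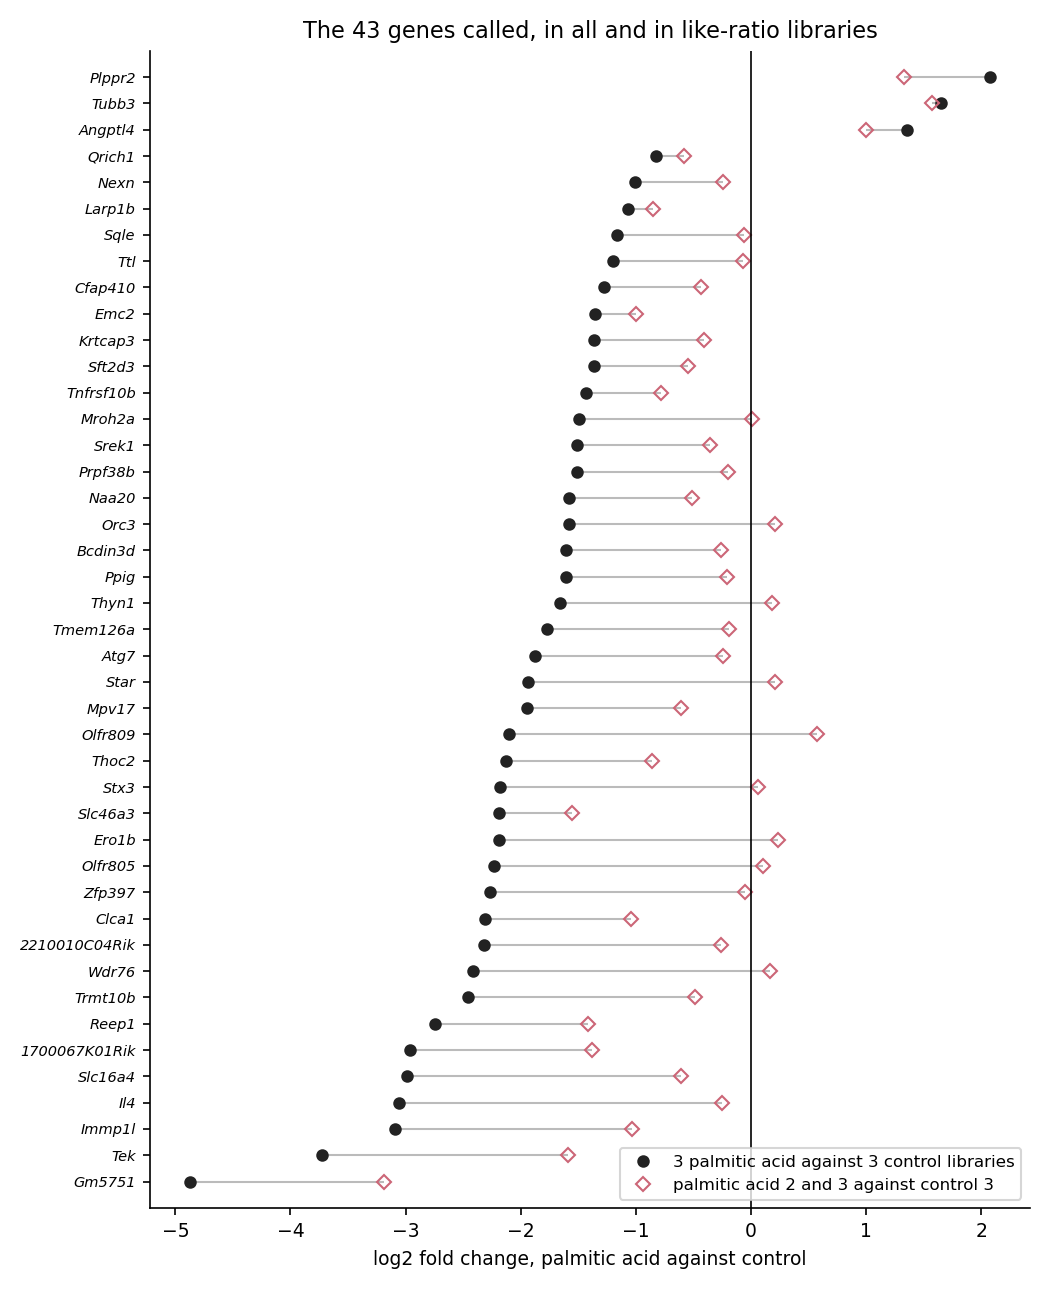
Log2 fold change of each of the 43 called genes over 3 palmitic acid and 3 control libraries (filled circles), which chose the genes, and in palmitic acid replicates 2 and 3 against control replicate 3 (open diamonds). The diamonds of Angptl4, Tubb3 and Plppr2 lie between 1.00 and 1.58. Those of the 40 lower genes have a median of -0.31, and several lie at or above 0. The libraries of the diamonds also chose the genes, so the diamonds are no separate result.

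In cholesterol synthesis and uptake, 13 of 17 unpaired genes were above 0 with a median of 0.23, yet the member that passed the threshold fell. Sqle, the squalene epoxidase, had 514, 534 and 206 CPM in control and 161, 133 and 262 CPM with palmitic acid (log2 fold change -1.16 ± 0.27, edgeR adjusted p = 0.0449). The groups overlapped, since control replicate 3 was below palmitic acid replicate 3, and at like ratio the value was -0.06 ± 0.28. Acat2, a cytosolic thiolase that starts the pathway, had 141, 158 and 121 CPM in control and 53.5, 80.5 and 73.0 CPM with palmitic acid. Its groups were apart, with a log2 fold change of -1.03 ± 0.26 (edgeR adjusted p = 0.0616) and of -0.66 ± 0.38 at like ratio. Among 13 unpaired genes of fatty acid synthesis and desaturation, 0 had an unadjusted p under 0.05, beside 4.02% higher and 7.09% lower of all unpaired genes. The desaturase Scd1 had 972, 939 and 877 CPM in control and 1136, 1000 and 1163 CPM with palmitic acid (0.24 ± 0.13, edgeR adjusted p = 0.335).

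Of 25 unpaired sarcomere genes, 9 were above 0, with a median of -0.13 over 3 against 3 libraries and -0.03 at like ratio. At an unadjusted p under 0.05, 1 was higher and 7 lower, where 4.02% of all unpaired genes were higher and 7.09% lower. At that p the list's 18 paired loci leaned the other way, with 6 higher and 1 lower, beside 14.9% of all paired loci each way. The medians of those loci were -0.02 and, at like ratio, -0.05. Tnnt2, the cardiac-type troponin T that immature muscle also makes, had 5412, 5667 and 4417 CPM in control and 2780, 4186 and 4246 CPM with palmitic acid (log2 fold change -0.47 ± 0.13, edgeR adjusted p = 0.0898). Palmitic acid replicate 1 was well below the rest, and the like-ratio value was -0.07 ± 0.10. Myh4, a fast myosin heavy chain, had 596, 658 and 477 CPM in control and 203, 398 and 479 CPM with palmitic acid (-0.69 ± 0.21, edgeR adjusted p = 0.119; -0.13 ± 0.21 at like ratio). Its groups overlapped.

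Myh3, the embryonic myosin heavy chain, had 11860, 13020 and 10760 CPM in control and 8097, 13010 and 12670 CPM with palmitic acid, a log2 fold change of -0.08 ± 0.12 (edgeR adjusted p = 0.794). With the log2 strand ratio as a covariate it was 0.33 ± 0.07 (edgeR adjusted p = 0.0138), the 1 feature called in that fit, and at like ratio it was 0.25 ± 0.07. The direction for Myh3 thus depended on the model. Myog, which drives terminal differentiation, had 705, 654 and 785 CPM in control and 683, 695 and 756 CPM with palmitic acid, and Myod1 had 212, 378 and 326 against 330, 302 and 318 CPM. Both overlapped between groups, with log2 fold changes of -0.01 ± 0.14 and 0.05 ± 0.19.

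The splicing factor and speckle list had 20 unpaired members, of which 8 were above 0, with a median of -0.20. At an unadjusted p under 0.05, 0 were higher and 7 lower, where 4.02% of all unpaired genes were higher and 7.09% lower. Ppig passed the adjusted threshold. Pnisr, a serine- and arginine-rich speckle protein, had 235, 294 and 171 CPM in control and 97.2, 154 and 111 CPM with palmitic acid (log2 fold change -0.95 ± 0.23, edgeR adjusted p = 0.0574; -0.37 ± 0.31 at like ratio). At like ratio the list's median was -0.12.

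Of 17 unpaired NF-kB and cytokine genes, 11 were above 0 with a median of 0.30, and 2 were higher and 0 lower at an unadjusted p under 0.05. At like ratio 11 of 17 were above 0, with a median of 0.32. Immediate early genes had a median of 0.31 over 18 members, with 14 above 0, and 0.20 at like ratio. Egr1, a zinc finger factor induced within minutes of stimulation, had 89.8, 90.4 and 118 CPM in control and 198, 226 and 121 CPM with palmitic acid (log2 fold change 0.85 ± 0.25, edgeR adjusted p = 0.113). Palmitic acid replicate 3 was only slightly above control replicate 3. In the ATF4 list 11 of 21 genes were above 0 with a median of 0.07, and 1 was higher and 4 lower at an unadjusted p under 0.05. Among ER chaperones and sensors 9 of 20 were above 0 with a median of -0.06, and 1 was higher and 3 lower. The background was 4.02% higher and 7.09% lower. The chaperone Hspa5 had 1181, 900 and 929 CPM in control and 896, 952 and 938 CPM with palmitic acid, and Atf4 had 431, 315 and 443 against 446, 475 and 369 CPM. Their groups overlapped, with log2 fold changes of -0.11 ± 0.14 and 0.12 ± 0.17.

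Mtor, the kinase that links nutrients to growth, whose introns hold Angptl7 on the other strand, had 87.5, 82.2 and 107 CPM in control and 145, 196 and 164 CPM with palmitic acid. The groups did not overlap (log2 fold change 0.85 ± 0.25, edgeR adjusted p = 0.112), and at like ratio the value was 0.75 ± 0.36. The insulin, Akt and mTOR list as a whole had a median of 0.04 over 21 genes. Mtor was its 1 member with an unadjusted p under 0.05, where 4.02% of all unpaired genes were higher and 7.09% lower. Among tubulins, 7 of 10 unpaired genes were above 0 with a median of 0.12. Tubb6 had 1062, 1030 and 1387 CPM in control and 1716, 1444 and 1576 CPM with palmitic acid, with a log2 fold change of 0.44 ± 0.13 (edgeR adjusted p = 0.115) and of 0.12 ± 0.15 at like ratio, beside 1.58 for Tubb3.

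In the fibroblast and matrix list, 15 of 22 unpaired genes were above 0, with a median of 0.16. At an unadjusted p under 0.05, 6 were higher and 0 lower, where 4.02% of all unpaired genes were higher and 7.09% lower. At like ratio 12 of 22 were above 0 with a median of 0.04. Col6a3, a chain of type VI collagen, had 615, 613 and 470 CPM in control and 748, 807 and 826 CPM with palmitic acid. Its log2 fold change was 0.49 ± 0.15 (edgeR adjusted p = 0.115), and 0.79 ± 0.19 at like ratio. Vim, the mesenchymal intermediate filament, had 6280, 6423 and 7530 CPM in control and 7949, 8259 and 8483 CPM with palmitic acid. Its log2 fold change was 0.29 ± 0.09 (edgeR adjusted p = 0.119), and 0.15 ± 0.09 at like ratio. The fibroblast marker Col1a1 overlapped between groups, with 0.20 ± 0.10, and -0.10 ± 0.09 at like ratio. Snai1, a mesenchymal repressor, had 46.1, 37 and 68.9 CPM in control and 149, 101 and 105 CPM with palmitic acid. Its log2 fold change was 1.19 ± 0.30 (edgeR adjusted p = 0.0611), and 0.58 ± 0.42 at like ratio. Snai2, the other unpaired mesenchymal repressor tested, overlapped between groups, with 6.91, 2.06 and 28.4 CPM in control and 22.7, 13.6 and 20.4 CPM with palmitic acid. Its log2 fold change was 0.48 ± 0.74 (edgeR adjusted p = 0.802), and -0.74 ± 0.95 at like ratio.

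Among paired loci, 398 were higher and 398 lower at an unadjusted p under 0.05, 14.9% of 2665 each way, and 0 passed the adjusted threshold by edgeR. DESeq2 called 163 loci and limma voom with quality weights called 702. By the naming rule the higher ones beside Ucp2 were the loci of Zdhhc4, C1qtnf6, Casp9, Nop56 with Idh3b, and Bcl7a, with log2 fold changes of 2.58 ± 0.53, 1.72 ± 0.37, 2.05 ± 0.45, 1.12 ± 0.25 and 1.61 ± 0.37. At like ratio these were 1.97, 0.63, 1.90, 0.50 and 1.72. Casp9, the initiator caspase of the mitochondrial death pathway, rested on few counts, with 4, 8 and 8 raw counts in control and 47, 29 and 32 with palmitic acid.

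The lower loci were those of Timp3 with Syn3, Lztfl1, Ugt1a9, H3c13, Trim43c and Pik3c2a, with log2 fold changes of -1.46 ± 0.30, -1.57 ± 0.34, -0.84 ± 0.18, -1.14 ± 0.25, -2.33 ± 0.53 and -2.35 ± 0.53. At like ratio they were -0.40, -0.45, -0.35, -0.82, -1.69 and -0.60. Among the last 5 of these, only in the Trim43c locus did the protein-coding gene of that name hold most of the control counts. Gm17200 held 270, 343 and 145 counts in control beside 10, 2 and 6 on Lztfl1, and Gm44777 held 324, 358 and 58 beside 29, 16 and 27 on Pik3c2a. Gm20528 held all but 2 counts of the Ugt1a9 locus, and Gm20628 held 131, 125 and 107 control counts beside 1, 3 and 7 on H3c13. In the first, Syn3, a synapsin gene that spans Timp3 on the other strand, held nearly all counts, 9286, 11478 and 5322 in control and 2110, 3782 and 4327 with palmitic acid. Timp3, a metalloproteinase inhibitor, held 158, 128 and 275, and 635, 245 and 201. The locus of Gnpnat1, an enzyme of the hexosamine pathway, with Styx had 619, 572 and 232 CPM in control and 114, 225 and 223 CPM with palmitic acid (log2 fold change -1.34 ± 0.34, edgeR adjusted p = 0.113; -0.06 ± 0.20 at like ratio). Hmgcs1, an early synthase of cholesterol synthesis, lies opposite Gm48342, and that locus had 1619, 1745 and 1226 CPM in control and 755, 1064 and 1225 CPM with palmitic acid (-0.59 ± 0.18, edgeR adjusted p = 0.144; -0.10 ± 0.14 at like ratio). Most of these counts were assigned to Gm48342, while Hmgcs1 was assigned 48, 49 and 122 counts in control and 327, 133 and 88 with palmitic acid. At all of these loci the division of counts between the strands is uncertain, so it does not give the level of each gene.

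The locus of Fn1, fibronectin, with Apol7d had 12960, 12650 and 16420 CPM in control and 30780, 19820 and 19720 CPM with palmitic acid (log2 fold change 0.74 ± 0.18, edgeR adjusted p = 0.103; 0.26 ± 0.09 at like ratio). Des, the muscle intermediate filament, with Gm15179 had 3204, 2996 and 5877 CPM in control and 13710, 6706 and 6586 CPM with palmitic acid (1.16 ± 0.31, edgeR adjusted p = 0.115; 0.17 ± 0.12 at like ratio). In both, palmitic acid replicate 1 was far above the other 5 libraries. Ckm, the muscle creatine kinase, with A930016O22Rik had 3377, 3368 and 4145 against 3438, 3895 and 3881 CPM, with overlapping groups (0.04 ± 0.12).

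2 matrix loci, chosen after their values were seen, differed little between the comparisons. The locus of 8030451A03Rik and Tnc, tenascin C, had 1080, 995 and 865 CPM in control and 1361, 1310 and 1329 CPM with palmitic acid, with log2 fold changes of 0.44 ± 0.12 (edgeR adjusted p = 0.119) and 0.61 ± 0.13 at like ratio. The locus of Gm29233 and Thbs1, thrombospondin 1, had 6579, 6964 and 6607 CPM in control and 8550, 8373 and 8270 CPM with palmitic acid, with 0.32 ± 0.10 (edgeR adjusted p = 0.144) and 0.33 ± 0.09. Every palmitic acid library was above every control at both loci, an order whose share among all paired loci is not reported here. At an unadjusted p under 0.05, 14.9% of all paired loci were higher. In control the noncoding genes held most counts, with 1620, 1743 and 1408 on 8030451A03Rik beside 213, 267 and 462 on Tnc, and 9441, 12288 and 10401 on Gm29233 beside 1727, 1776 and 3889 on Thbs1. With palmitic acid Tnc held 2191, 758 and 796 counts and Thbs1 12086, 5028 and 4649, so the locus values are not those of the protein-coding genes alone.

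**Figure D5:**
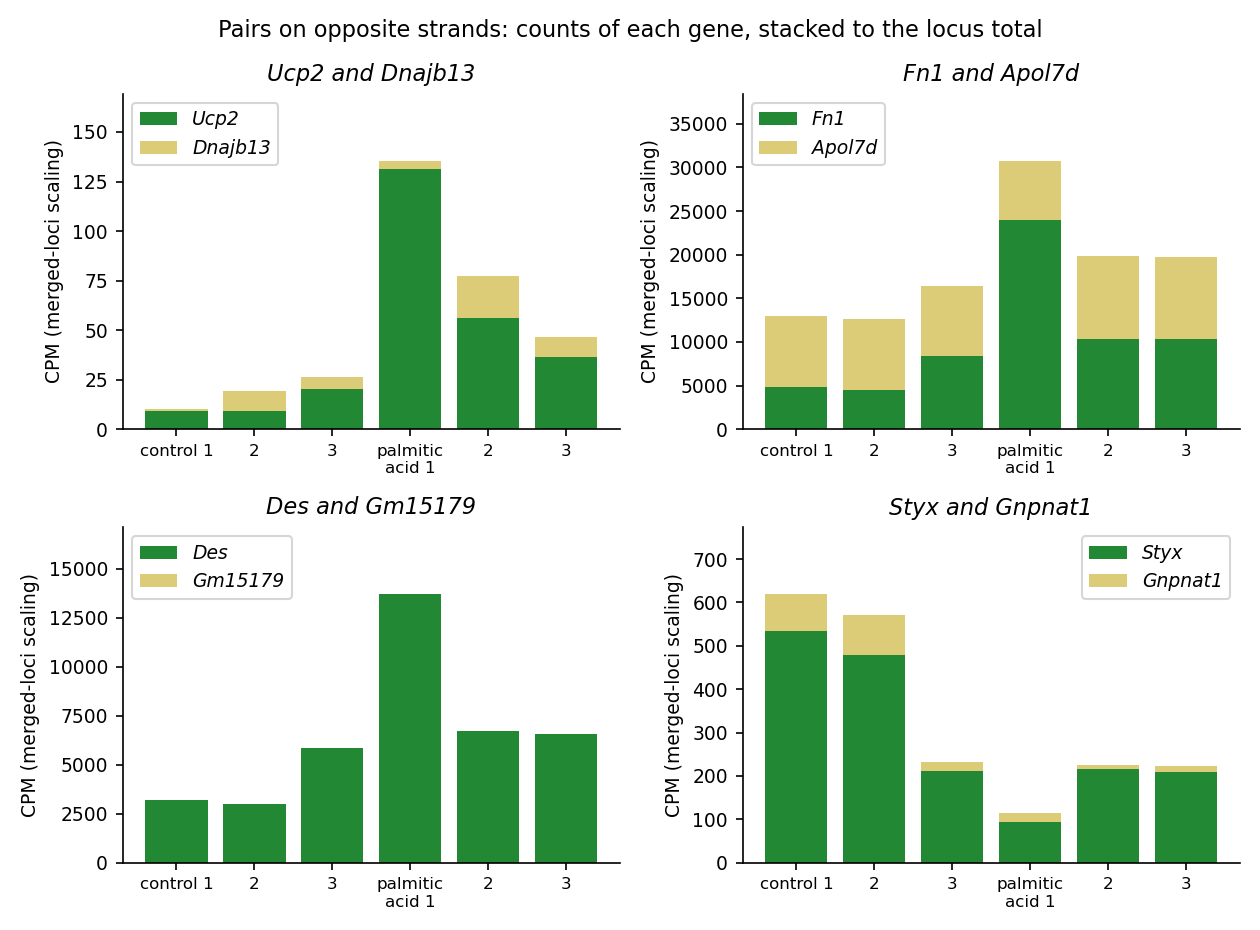
CPM of paired-locus counts in each library for 4 pairs of genes on opposite strands, stacked to the locus total on linear axes from 0. The Ucp2 and Fn1 loci are tallest in palmitic acid replicate 1, Des holds nearly all of its locus in every library, and the Styx and Gnpnat1 locus stands at 232, 225 and 223 CPM in control replicate 3 and palmitic acid replicates 2 and 3.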

How the data were processed

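Stranded mRNA libraries of 3 control and 3 palmitic acid samples, with 3 palmitic acid + carnitine samples in the fits, were grouped by treatment label. The deposited table gives raw read counts per gene and FPKM made by the authors, per the file headers. Per the submitters' processing notes, the tools were HTSeq 0.13.5, HISAT2 2.2.0, Trim Galore 0.6.4, Bowtie2 2.4.2 and edgeR, and the genome builds listed are GRCm39, Rnor_6.0 and GRCh38. How strand and multi-mapped reads were counted, and any filters, are not given in the sources used here, so counts of overlapping genes and near-identical copies are uncertain, and an unpaired gene may still hold reads of the other strand.

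GENCODE M21 (GRCm38) was joined by gene ID for 22506 genes, solely to find opposite-strand neighbours. It gave 9510 unpaired protein-coding genes and 2971 loci of 6720 genes with exons overlapping on opposite strands. Of the rest, 2898 genes had an opposite-strand gene without such a merge and were tested only in the fit of all genes. Each set was fitted with edgeR 4.0.16 in R 4.3.3 (TMM, filterByExpr with a minimum count of 10 and total of 15, glmQLFit and glmQLFTest) over 9 libraries with group as the factor. Tests were two-sided. Benjamini-Hochberg adjustment ran over both sets together, with a threshold of 0.05. An SE is the absolute log2 fold change divided by the root of the F statistic. limma 3.58.1 and DESeq2 1.42.0 gave alternatives, and limma on log2(FPKM + 1) is on that log2 scale, which understates changes of low genes. The scripts were tested on simulated counts.

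Named genes are up to 10 higher and 10 lower unpaired genes past the threshold with groups apart and at least 5 CPM in the higher group, 6 loci each way by the same rule, up to 4 members per list, and 50 genes picked in advance. The text leaves out some genes the rule selects, and some results are not reported here. Il4, Olfr805, Star, Emc2's 3 companions at like ratio (Larp1b, Slc46a3 and Qrich1), Tnc and Thbs1 were chosen after their values were seen. The members, 34 lists and 50 genes were chosen with earlier results of these data known. Replicate numbers were not used to pair the libraries in the main fits. Deviations of same-numbered control and palmitic acid libraries correlated at -0.262, 0.234 and -0.41 over all genes. Over unpaired genes the values were -0.0659, 0.0811 and -0.132. So few values cannot settle whether same-numbered libraries belong together.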

Additional observations from a re-analysis of the deposited data

How the results depend on the processing

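Depth limits low genes: counts of unpaired genes summed to 0.437 to 2.26 M per library. The comparison of control replicate 3 with palmitic acid replicates 2 and 3 was added after seeing the data.

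The number of genes and loci called, opposite-strand overlaps merged, was 43 and became 262 with DESeq2, 143 without a filter on low counts, 1 with the strand ratio as covariate, 878 with limma voom and quality weights, 830 without control 3 and palmitic acid 1 together, 0 in the like-ratio libraries, 1454 at an unadjusted p under 0.05 and 65 with adjustment within each set. Leaving out 1 library gave 0 to 857. It stayed within 1.5 times with RLE factors (43), 6 libraries alone (30), merging at 100 bp (43) and the replicate block (50, of which 37 were among the 43).

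The count of 0 in 1 fit of all genes became 437 with DESeq2, 1118 without a filter, 1024 with voom, 2369 without control 3 and palmitic acid 1, 2 at like ratio, 1 with limma on log2(FPKM + 0.1) and 2453 at an unadjusted p under 0.05. Leaving out 1 library gave 0 to 768. The replicate block gave 0 there too. No cause of these changes was tested.

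The ratio difference (palmitic acid minus control) of 1.14 ranged from 0.383 to 1.52, and that of total counts, 1.19 M, from 0.602 to 1.51 M, when 1 library was left out.

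Directions turned for these log2 fold changes. At like ratio they were 0.10 for Olfr805, 0.21 for Star, 0.25 for Myh3, 0.02 for Hspa5, -0.07 for Atf4, -0.08 for Myod1 and -0.10 for the Ckm locus. On log2(FPKM + 1) and log2(FPKM + 0.1) they were 0.16 and 0.16 for Tnnt2, 0.54 and 0.54 for Myh3, 0.53 and 0.54 for Hspa5 and 0.64 and 0.64 for Myog. In 1 fit of all genes, where the median of unpaired genes was 0.27, they were 0.20 for Myh3, 0.18 for Hspa5 and 0.26 for Myog. With the ratio as covariate they were 0.33 for Myh3 and -0.02 for Myod1. Without control 3 and palmitic acid 1 they were 0.05 for Myh3 and 0.10 for Myog. Myog was 0.02 without a filter and 0.00 with voom. Leaving out 1 library gave ranges of -0.20 to 0.12 for Myh3, -0.17 to 0.04 for Hspa5, -0.01 to 0.21 for Atf4, -0.06 to 0.06 for Myog, -0.13 to 0.23 for Myod1 and -0.02 to 0.15 for the Ckm locus. The replicate block turned no direction. Under it the log2 fold change of Qrich1 (-0.83, edgeR adjusted p = 0.0659) and the log2 fold change of Sqle (-1.18, 0.0655) no longer passed, and the log2 fold change of Pnisr (-0.95, 0.0411) did.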
